A study of Mus musculus with 10 samples.

Results

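The receptors described here are T cell receptor beta chains built with TRBJ1-1, TRBJ1-2, TRBJ1-3, TRBJ1-4 or TRBJ1-5, the first 5 joining segments of the mouse beta chain locus. They were chosen from the clonotype tables of 10 mouse libraries as the entries that carry one of those J names and a CDR3 ending in EVFF, DYTF, TLYF, RLFF or APLF, the final residues these segments encode. This gave 54026 of 387286 entries, which is 28.0% of the 193012 beta chain (TRB) entries and 27.9% of the TRB counts. TRBJ1-1 held 17912 entries, TRBJ1-4 held 11486, TRBJ1-3 held 10640, TRBJ1-2 held 8564 and TRBJ1-5 held 5424. The end is needed because 137868 of the 191908 entries with one of these J names (71.8%) did not have a TRB end and were not used.

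The study sequenced receptors of regulatory T (Treg) cells, the suppressive lineage defined by the transcription factor Foxp3, sorted from mouse spleen and used directly after isolation, without treatment. Of the 10 libraries, 5 are labelled CNS4KO, from mice deficient in CNS4, a distal enhancer of Foxp3. The other 5 are labelled CNS4Flox and WT, from mice whose CNS4 is flanked by loxP sites. The comparison asks whether losing this enhancer changes the receptor repertoire. Ages, sexes and the number of cells are not given in the labels, nor is any Cre allele, and the labels do not say whether each library is a separate mouse, so p-values measure only the spread between these samples. The tables hold receptor sequences and no other gene, so the labelled cell type was not checked against markers. The replicate numbers used below follow the order of the samples and only name them.

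A beta chain is assembled in the thymus when RAG recombinase joins a V, a D and a J segment, with bases trimmed from the segment ends and others inserted by terminal transferase. The junction is the CDR3 loop, which contacts the antigen peptide, and the J segment supplies its last residues. TRBD1 lies before the TRBJ1 cluster, whereas TRBD2 lies between the TRBJ1 and TRBJ2 clusters, so deletional joining of TRBD2 reaches TRBJ2 but not TRBJ1. A clonotype is here a distinct combination of V gene, J gene and CDR3 nucleotides, counted once whatever its abundance unless counts are named.

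The 5 segments lie close together on chromosome 6 (mm10, positions from the RefSeq annotation of GRCm38.p6). TRBD1 spans 41533201 to 41533212, TRBJ1-1 spans 41533864 to 41533911, TRBJ1-2 spans 41534001 to 41534048, TRBJ1-3 spans 41534323 to 41534372, TRBJ1-4 spans 41534811 to 41534861 and TRBJ1-5 spans 41535084 to 41535133. TRBD2 follows at 41542163 to 41542176. The longest J match seen for each gene is shown because all trimming below is counted from it. It was read from the deposited junctions, 5′ to 3′, with capitals for the 12 bases of the 4 end residues that the selection asked for.
TRBJ1-1: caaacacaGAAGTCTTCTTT
TRBJ1-2: caaactccGACTACACCTTC
TRBJ1-3: ttctggaaatACGCTCTATTTT
TRBJ1-4: tttccaacgaaAGATTATTTTTC
TRBJ1-5: taacaaccagGCTCCGCTTTTT
These ends are 20, 20, 22, 23 and 22 bases long. In each of the 5 genes the length equals the annotated segment length minus 28 bases, the part of the segment that lies behind the CDR3. Among junctions with the longest match, 95.7% to 99.2% carried exactly the sequence shown. The lower-case bases, 8 to 11 of them, are the stretch in which trimming could mostly be seen. An entry with a J match too short for this was rarely selected, as in 8 entries of TRBJ1-1. Over the 5 genes, 9 entries had the end residues of another of the 5 genes.

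Depth was 19199 to 34833 TRB counts per library, of which 5142 to 9882 belonged to the 5 genes, in 3766 to 6689 clonotypes. Counts of these genes averaged 7820 ± 1858 in CNS4KO libraries, against 7013 ± 1415 in CNS4Flox libraries (SD over 5 libraries each). Whether a count is a read or a molecule is not stated, and intervals from counts cover counting error only. One pair of libraries stood apart: CNS4Flox replicate 3 and CNS4KO replicate 5 shared 233 clonotypes of the 5 genes, against 24 to 83 in each of the other 44 pairs. Tests between the groups were also run without these 2 libraries. The numbers of shared clonotypes and their mean junction values, further below, are given only with both libraries included.

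TRBJ1-1 was the most used of the 5 segments, with 9.29% ± 0.47 of the TRB clonotypes in a library (SD, n = 10). TRBJ1-4 followed with 5.96% ± 0.17, TRBJ1-3 with 5.53% ± 0.28, TRBJ1-2 with 4.46% ± 0.21 and TRBJ1-5 with 2.81% ± 0.12. TRBJ1-1 lay above the other 4 genes in every library. The ranges of TRBJ1-4 (5.71% to 6.26%) and TRBJ1-3 (5.06% to 5.89%) overlapped, while TRBJ1-2 (4.10% to 4.66%) and TRBJ1-5 (2.62% to 3.01%) were apart from all others.

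**Figure D1:**
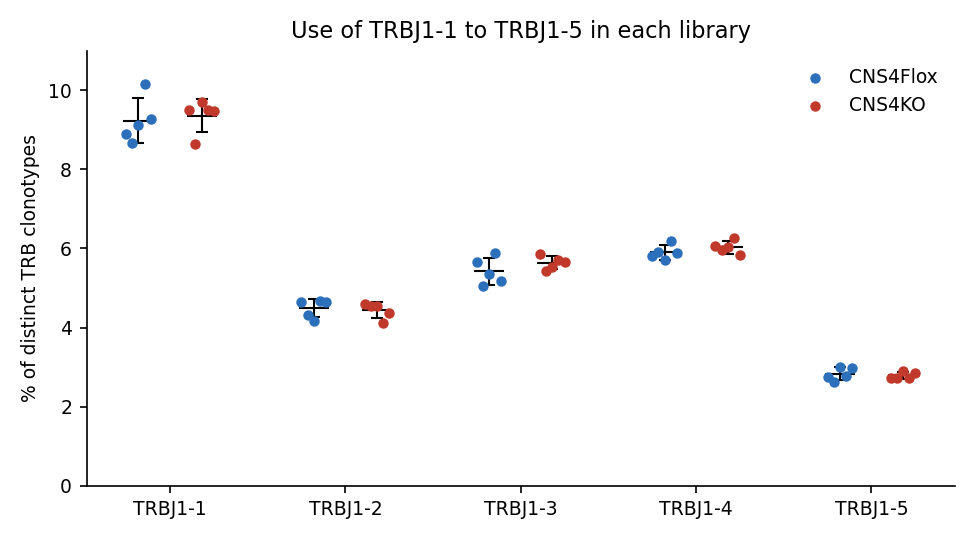
Share of distinct TRB clonotypes (percent, vertical axis) that use each of the 5 TRBJ1 genes; each point is a library, and black marks give the group mean and SD (n = 5). TRBJ1-1 is highest at 8.64% to 10.2% and TRBJ1-5 lowest at 2.62% to 3.01%, and CNS4KO and CNS4Flox points overlap for all 5 genes.

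No difference in the use of the 5 segments was detected between CNS4KO and CNS4Flox Treg cells. For TRBJ1-1 the shares in CNS4KO replicates 1 to 5 were 9.51%, 8.64%, 9.70%, 9.50% and 9.47%. The CNS4Flox libraries had 8.91%, 8.68%, 9.12%, 10.2% and 9.28%. The groups overlapped, and CNS4KO replicate 2 was the lowest library of all. By clonotypes the log2 fold changes of the 5 genes ran from -0.02 to 0.06 and by counts from -0.08 to 0.06. edgeR's quasi-likelihood test called 0 of the 5 genes by either measure (percent called over the 12 TRBJ genes 0). The smallest Benjamini-Hochberg adjusted p among the 5 was 0.903 by clonotypes and 0.647 by counts; an unadjusted p under 0.05 was reached by 0 of the 5 (8.33% of the 12 genes by counts), and DESeq2 called 0 of them as well. Among the 7 other TRBJ genes (TRBJ1-6, TRBJ2-1, TRBJ2-2, TRBJ2-3, TRBJ2-4, TRBJ2-5 and TRBJ2-7) edgeR also called 0.

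The genes differed in how far their ends were trimmed. TRBJ1-3 was the least trimmed: the whole end was kept in 47.9% ± 0.82 of its clonotypes, and 1.56 ± 0.051 bases were missing on average (SD, n = 10). TRBJ1-2 kept the whole end in 36.3% ± 2.0, with 1.84 ± 0.078 bases missing. TRBJ1-1 kept it in 26.3% ± 1.2 and lacked 2.50 ± 0.063 bases. TRBJ1-4 and TRBJ1-5, the segments farthest from TRBD1 among the 5, kept it in 24.6% ± 1.5 and 20.9% ± 1.2 and lacked 3.17 ± 0.069 and 3.23 ± 0.080 bases. The pair did not differ beyond their spread in the bases missing, with library means of 3.04 to 3.31 and 3.08 to 3.31.

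The loss was not spread evenly along the segments. TRBJ1-3 had further peaks at 2 missing bases, with 16.1% ± 1.1 of clonotypes, and at 4, with 13.9% ± 1.4. Few of its clonotypes lay beyond 4 bases: 1.02% ± 0.25 lacked 5, and each larger loss held a smaller share than that. TRBJ1-2 fell off at the same point, from 15.96% ± 2.0 with 4 bases missing to 4.37% ± 0.97 with 5. TRBJ1-1 also had 16.3% ± 0.98 with 4 missing but kept a longer tail, with 7.59% ± 0.75 lacking 5 bases. TRBJ1-4 showed its deeper peak at 7 missing bases, in 11.8% ± 1.0, and 1.32% ± 0.39 lacked 8. TRBJ1-5 had its largest partial loss at 3 bases, in 17.7% ± 1.5, and 5.53% ± 0.97 of its clonotypes lacked 9 bases, close to the 10 that the selection allowed.

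**Figure D2:**
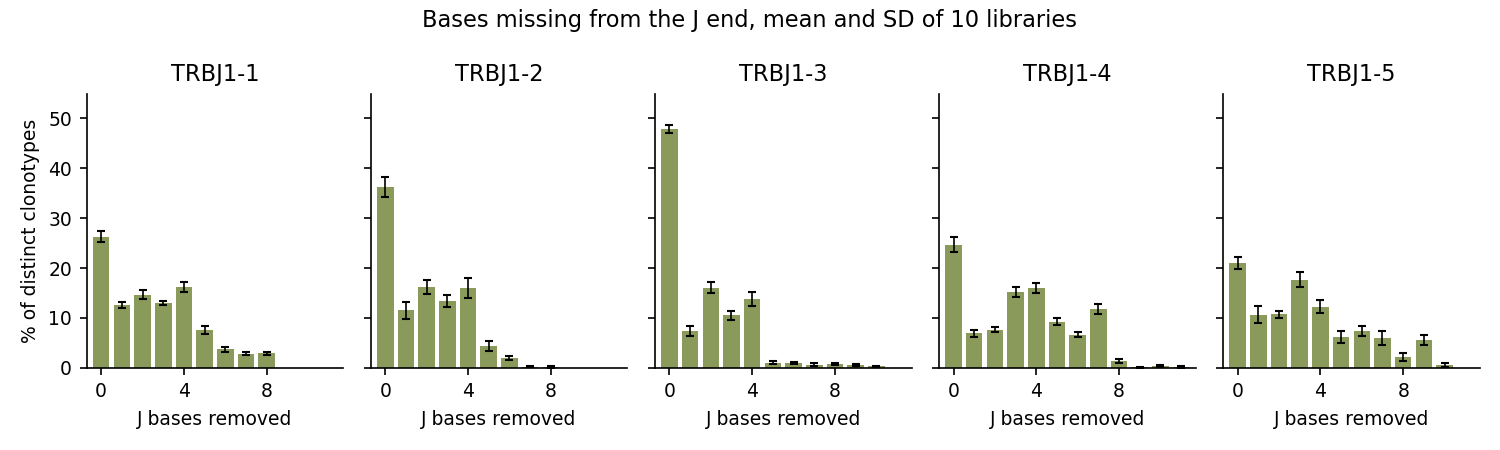
Percent of distinct clonotypes of each gene (vertical axis) by the number of bases missing from its J end (horizontal axis); bars are means of 10 libraries and lines their SD. TRBJ1-3 has the tallest bar at 0 missing bases (47.9%) and TRBJ1-5 the lowest (20.9%); TRBJ1-1, TRBJ1-2 and TRBJ1-3 drop after 4 bases and TRBJ1-4 after 7.

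Each gene was set against the mean of the other TRBJ genes in the same library. By J bases kept, the difference was largest for TRBJ1-3 at 3.05 ± 0.060 bases and lowest for TRBJ1-1 at -0.155 ± 0.067, and all 5 genes passed an exact sign-flip permutation test over the 10 libraries (two-sided, p = 0.00195, the smallest 1024 sign flips can give; Benjamini-Hochberg adjusted p = 0.0026; percent called over 12 genes 100). This comparison is weighed down by TRBJ1-6, whose entries were named TRBJ2-5 in 6700 of 6833 cases and so carry the J match of another segment. With TRBJ1-6 left out the direction turned for TRBJ1-2, from 0.562 to -0.589 bases, and TRBJ1-1 moved to -1.31, TRBJ1-3 to 1.92, TRBJ1-4 to 1.25 and TRBJ1-5 to 0.081.

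Bases missing allow for the different lengths of the ends, a measure chosen after the data were seen. Against the other 10 genes without TRBJ1-6, TRBJ1-3 differed by -1.12 ± 0.060 bases, that is, it was less trimmed, in 10 of 10 libraries. TRBJ1-2 (-0.811 ± 0.086) was also less trimmed in 10 of 10, and TRBJ1-1 (-0.088 ± 0.067) had fewer bases missing in all but 1. The selection hides most losses beyond 8 bases in TRBJ1-1 and TRBJ1-2, and beyond 10 or 11 in TRBJ1-3 to TRBJ1-5. In TRBJ1-1, 2.85% of clonotypes lacked 7 bases and 2.90% lacked 8, so deeper losses may be missed. Whether the small TRBJ1-1 difference comes from this limit was not tested. TRBJ1-4 (0.651 ± 0.074) and TRBJ1-5 (0.719 ± 0.081) were more trimmed in 10 of 10. All 5 passed the exact sign-flip permutation test (adjusted p from 0.0021 to 0.0061; percent called over 11 genes 100), so every TRBJ gene tested differed from the average of the rest.

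Trimming did not separate CNS4KO from CNS4Flox. The gene with the largest group difference in J bases kept was TRBJ1-5, where the CNS4KO libraries 1 to 5 kept 18.88, 18.78, 18.79, 18.69 and 18.92 bases and the CNS4Flox libraries 18.70, 18.71, 18.72, 18.77 and 18.71. These groups overlapped and differed by 0.094 bases (exact permutation p = 0.0635, adjusted p = 0.381). The exact permutation test called 0 of the 5 genes (percent called over 12 genes 0), with 0 of the 5 at an unadjusted exact permutation p under 0.05 (8.33% of the 12 genes), and the other 4 differences ran from -0.040 to 0.050 bases.

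CDR3 length differed between the genes. TRBJ1-3 and TRBJ1-4 gave the longest loops of the 5, with means of 13.99 ± 0.041 and 13.95 ± 0.055 residues (SD, n = 10). TRBJ1-5 gave 13.5 ± 0.066, TRBJ1-2 gave 13.4 ± 0.036 and TRBJ1-1 the shortest at 13.2 ± 0.023. A length of 13 residues was the most frequent for TRBJ1-1 (34.4% of clonotypes), TRBJ1-2 (34.6%) and TRBJ1-5 (28.4%), and 14 residues for TRBJ1-3 (40.3%) and TRBJ1-4 (32.1%). Against the other 11 TRBJ genes in the same library, TRBJ1-3 and TRBJ1-4 were longer by 0.210 ± 0.036 and 0.168 ± 0.060 residues. TRBJ1-1, TRBJ1-2 and TRBJ1-5 were shorter, with differences of -0.639 ± 0.022, -0.447 ± 0.037 and -0.301 ± 0.060. All 5 genes had the same direction in 10 of 10 libraries (exact sign-flip permutation p = 0.00195, adjusted p = 0.0026; percent called 91.7).

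Inserted bases varied less between the genes than trimming did. TRBJ1-3 junctions held 4.97 ± 0.083 inserted bases, the fewest of the 5, and the other 4 genes held 5.19 to 5.27. Against the other 11 genes the differences were -1.19 to -1.52 bases (percent called 100), a comparison that again includes the TRBJ1-6 entries. Without TRBJ1-6 the difference was -0.343 ± 0.070 for TRBJ1-3 and -0.100 ± 0.068 for TRBJ1-2, lower in 10 of 10 libraries each. TRBJ1-4 and TRBJ1-5 were at -0.069 and -0.087, lower in 8 of 10 libraries, and TRBJ1-1 at -0.010 did not pass (adjusted p = 0.442 by the exact sign-flip permutation test; percent called over 11 genes 90.9). Junctions with no inserted base were rare, from 0.274% of TRBJ1-2 clonotypes to 0.513% of TRBJ1-3 clonotypes, and only TRBJ1-3 passed against the other 11 genes (0.206 percentage points, higher in 8 of 10 libraries, adjusted exact permutation p = 0.0375; percent called 41.7). That call was lost without TRBJ1-6 (0.175 percentage points, adjusted exact permutation p = 0.0645; percent called over 11 genes 27.3). It was also lost without CNS4KO replicate 1 (0.189), 2 (0.155) or 3 (0.200) and without CNS4Flox replicate 1 (0.198) or 3 (0.174), each at an adjusted exact permutation p of 0.0714 to 0.075.

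No difference between the groups was detected in CDR3 length or inserted bases. For TRBJ1-3, mean CDR3 length was 14.04, 13.92, 13.97, 13.97 and 13.95 residues in the CNS4KO libraries 1 to 5, and the CNS4Flox libraries had 13.99, 14.04, 14.04, 14.01 and 13.99. The groups overlapped through CNS4KO replicate 1. The difference of -0.047 residues was the largest of the 5 genes and had an adjusted exact permutation p of 0.318. For inserted bases the largest difference was -0.090, in TRBJ1-5 (adjusted exact permutation p = 0.724). The test called 0 of the 5 genes for CDR3 length, 0 for inserted bases and 0 for junctions with no inserted base (percent called over 12 genes 0 for each), and no TRBJ gene had an unadjusted p under 0.05 in these 3 measures.

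**Figure D3:**
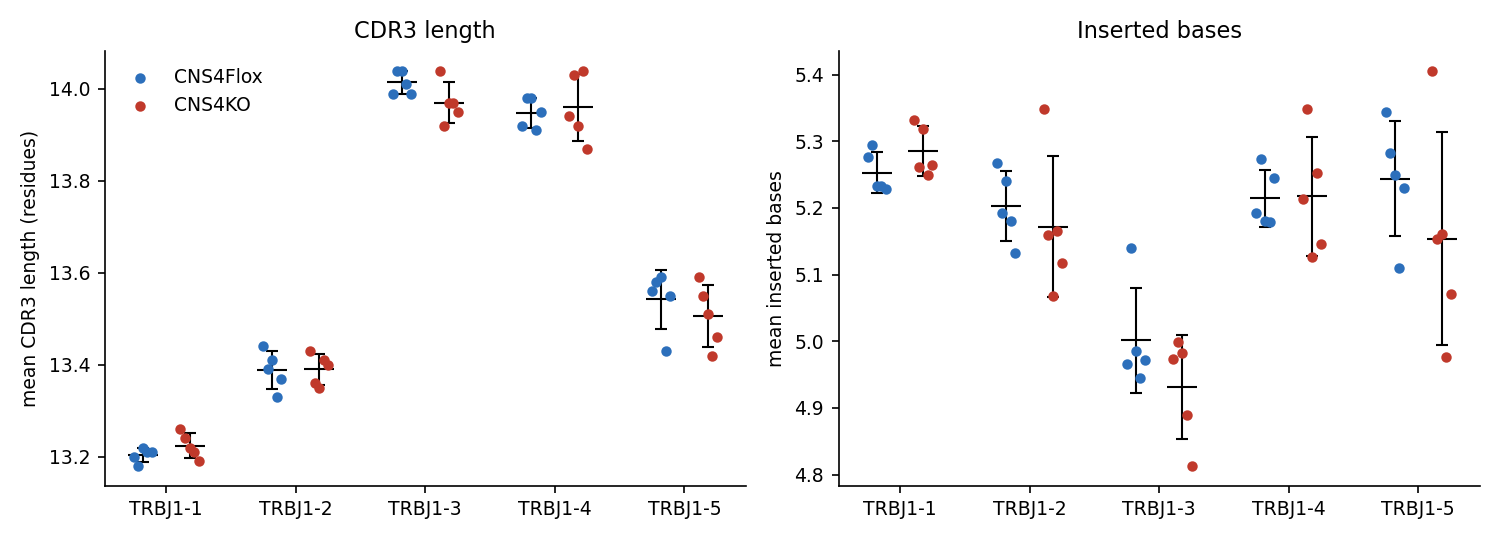
Mean CDR3 length (residues, left) and mean inserted bases (right) of the distinct clonotypes of each gene; each point is a library, with group mean and SD in black (n = 5), and neither axis starts at 0. TRBJ1-3 and TRBJ1-4 have the longest CDR3s at 13.99 and 13.95 residues, TRBJ1-3 the fewest inserted bases at 4.97, and the groups overlap in all 5 genes.

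The D matches followed the order of the locus. A TRBD1 match was listed for 85.8% to 87.6% of clonotypes, by gene, and a TRBD2 match for 7.44% to 9.23%. In the 6 TRBJ2 genes the TRBD2 share was 32.8% to 51.2%. All 5 genes were below the mean of the other 10 TRBJ genes, by differences of -20.7 to -22.7 percentage points in 10 of 10 libraries (exact sign-flip permutation, adjusted p = 0.0021, a comparison added after the data were seen; percent called over 11 genes 100). A D match averaged 4.24 to 4.68 bases, so many are short, and whether the TRBD2 names among these receptors reflect TRBD2 or a chance match was not tested. No D was matched in 4.55% to 5.46% of clonotypes.

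Each gene joined all 22 TRBV genes in the tables, with its own order of partners. TRBV31, which lies behind the J clusters (41557693 to 41558371) and joins by inversion, was the first partner of TRBJ1-2 (13.0% ± 1.4 of its clonotypes, SD, n = 10), TRBJ1-5 (12.3% ± 2.4), TRBJ1-4 (10.9% ± 1.3) and TRBJ1-1 (9.70% ± 1.7). TRBJ1-3 paired most with TRBV19 (8.73% ± 1.3), followed by TRBV31 (8.31% ± 1.5), a difference within their spread. The second partner was TRBV5 for TRBJ1-1 (8.72% ± 0.89) and TRBJ1-5 (8.002% ± 1.6), TRBV3 for TRBJ1-2 (9.62% ± 1.9) and TRBV19 for TRBJ1-4 (8.25% ± 1.6). TRBV24 was the rarest partner of TRBJ1-1 (0.450% ± 0.19), TRBJ1-2 (0.967% ± 0.55), TRBJ1-3 (0.459% ± 0.11) and TRBJ1-4 (0.756% ± 0.24), and TRBV30 that of TRBJ1-5 (0.575% ± 0.60).

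Seen from the V side, the 5 genes together made up between 18.6% ± 2.0 of TRBV17 clonotypes and 33.97% ± 2.4 of TRBV20 clonotypes. The V profiles were set side by side as the sum of the absolute differences in V share, divided by 2, over the 22 TRBV genes, on the mean of 10 libraries. TRBJ1-1 was most like TRBJ2-7 (8.07 percentage points) and least like TRBJ1-2 (19.0), which lies next to it. TRBJ1-2 and TRBJ1-4 were both most like TRBJ2-3 (10.6 and 8.24), TRBJ1-3 was most like TRBJ2-4 (8.52) and TRBJ1-5 most like TRBJ2-5 (10.7). TRBJ1-4 was nearly as close to TRBJ1-5 (10.8) and to TRBJ1-3 (9.16) as these nearest genes were. The values are from means of 10 libraries and were not tested.

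TRBV12-1 joined to TRBJ1-1 was more frequent in CNS4KO Treg cells. This pair made up 0.967%, 0.885%, 1.11%, 1.09% and 0.911% of TRB clonotypes in CNS4KO replicates 1 to 5. In CNS4Flox replicates 1 to 5 it made up 0.621%, 0.600%, 0.654%, 0.663% and 0.502%. All CNS4KO libraries were above all CNS4Flox libraries. The log2 fold change was 0.70 (SE 0.12), with an adjusted p of 2.45e-04 by edgeR's quasi-likelihood test over 249 pairs. Within the gene, TRBV12-1 made up 10.6% ± 0.83 of TRBJ1-1 clonotypes in CNS4KO libraries, against 6.60% ± 0.70 in CNS4Flox libraries (SD over 5 libraries each).

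TRBV12-1 joined to TRBJ1-3 was also more frequent by clonotypes. It made up 0.518%, 0.559%, 0.407%, 0.515% and 0.412% of TRB clonotypes in the CNS4KO libraries 1 to 5. The CNS4Flox libraries had 0.262%, 0.278%, 0.347%, 0.386% and 0.339%. The groups did not overlap, although CNS4KO replicate 3 and CNS4Flox replicate 4 were close. The log2 fold change was 0.58 (SE 0.14), adjusted p = 0.0356 by edgeR.

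These were the 2 pairs called among 101 tested with the 5 genes (percent called over 249 pairs 1.2; 8 of the 101 at an unadjusted p under 0.05, against 9.64% of all pairs); the third call of the whole table was TRBV12-1 with TRBJ1-6. TRBV12-1 with TRBJ1-4 had a log2 fold change of 0.41 (SE 0.14, edgeR adjusted p = 0.210), with TRBJ1-2 0.26 (SE 0.18, adjusted p = 0.675) and with TRBJ1-5 0.03 (SE 0.22, adjusted p = 0.984). Of the 101 pairs 43 were higher and 58 lower in CNS4KO, with a median log2 fold change of -0.02, against -0.03 over all pairs. The mean TRBV12-1 share of a gene's clonotypes was higher in CNS4KO in each of the 12 TRBJ genes. Of all TRB clonotypes, TRBV12-1 made up 6.91% ± 0.42 in CNS4KO libraries, against 5.24% ± 0.40 in CNS4Flox libraries. That difference over all J genes was not tested. By counts TRBV12-1 had log2 fold changes of -0.11 with TRBJ1-5 and -0.07 with TRBJ2-2, and was higher in CNS4KO with the other 10 genes. Whether the TRBV12-1 difference itself varies between J genes was not tested. TRBV12-1 lies at 41113567 to 41114067 and is closely similar to TRBV12-2, so reads of the pair may be hard to tell apart. TRBV12-2 made up 4.45% ± 0.74 of TRBJ1-1 clonotypes in CNS4KO libraries, against 3.29% ± 0.76 in CNS4Flox libraries, and its pair with TRBJ1-1 had a log2 fold change of 0.44 (SE 0.16, edgeR adjusted p = 0.210).

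By counts only TRBV12-1 with TRBJ1-1 was called, at a log2 fold change of 0.64 (SE 0.13, adjusted p = 0.0452 by edgeR, 1 of 103 pairs with the 5 genes; percent called over 253 pairs 0.395; 10 of the 103 at an unadjusted p under 0.05, against 8.7% of all pairs). That call sits at the threshold: with CNS4KO replicate 1 or 3, or CNS4Flox replicate 1, 2, 3 or 5 left out, the log2 fold change stayed at 0.59 to 0.65 and the edgeR adjusted p was 0.0907 to 0.211. By clonotypes the TRBJ1-1 pair kept its call with each sample left out (log2 fold change 0.65 to 0.74). The TRBJ1-3 pair lost its call without CNS4KO replicate 1, 2 or 4 or CNS4Flox replicate 1, 2, 3 or 5 (log2 fold change 0.51 to 0.61, edgeR adjusted p 0.0582 to 0.0915). It also lost it without clonotypes with a count of 1, where its log2 fold change was larger at 0.97 (edgeR adjusted p = 0.127). In that setting TRBV12-1 with TRBJ1-4 was called instead, at 1.15 (edgeR adjusted p = 0.0472), beside TRBV12-1 with TRBJ1-1 at 0.85 (edgeR adjusted p = 0.0472). Without the pair of libraries with high overlap, by clonotypes, the TRBJ1-1 pair stood at 0.77 (adjusted p = 0.00204) and the TRBJ1-3 pair at 0.67 (adjusted p = 0.0559) by edgeR. By counts the TRBJ1-1 pair was then at 0.66 and not called (edgeR adjusted p = 0.338). It was also not called by counts without clonotypes with a count of 1 (0.69, edgeR adjusted p = 0.879).

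**Figure D4:**
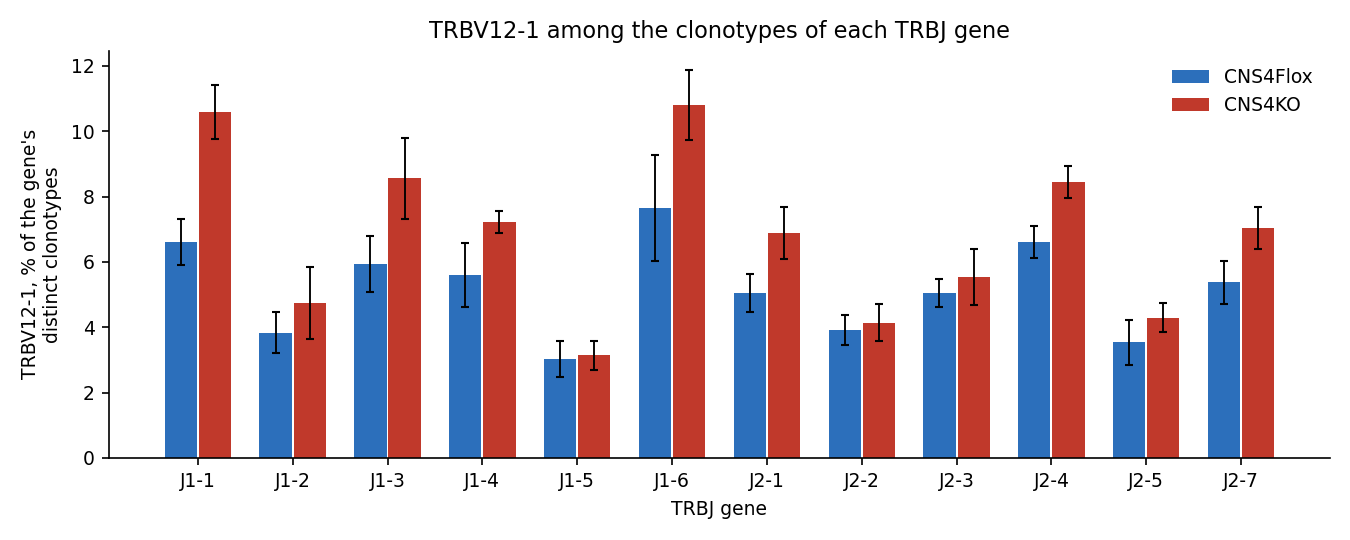
TRBV12-1 as a percent of the distinct clonotypes of each TRBJ gene (vertical axis), for all 12 genes; bars are group means and lines SD (n = 5 libraries). In TRBJ1-1 it is 6.60% in CNS4Flox and 10.6% in CNS4KO, in TRBJ1-3 5.95% and 8.56%, and in TRBJ1-5 3.03% and 3.14%.

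In CNS4KO libraries fewer clonotypes of the 5 genes had a count of 1, a share that was not tested and that moves with depth. Of the TRBJ1-2 clonotypes, 74.2% ± 4.8 had a count of 1 in CNS4KO libraries, against 84.8% ± 3.4 in CNS4Flox libraries (SD over 5 libraries each), and the other 4 genes had means of 75.3% to 76.6% against 84.5% to 86.0%. The largest clonotype of each gene, by its share of TRB counts in a library, was in a CNS4KO library and was found in no other library. Their junctions are shown as examples of the most expanded clones, with the J match in capitals.
TRBJ1-1 with TRBV4: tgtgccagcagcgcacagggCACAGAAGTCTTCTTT
TRBJ1-2 with TRBV29: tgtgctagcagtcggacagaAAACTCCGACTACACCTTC
TRBJ1-3 with TRBV31: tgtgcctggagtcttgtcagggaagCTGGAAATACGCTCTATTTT
TRBJ1-4 with TRBV12-1: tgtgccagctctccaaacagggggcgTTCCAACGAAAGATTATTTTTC
TRBJ1-5 with TRBV19: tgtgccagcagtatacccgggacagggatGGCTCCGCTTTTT
The TRBJ1-1 clonotype had 506 counts in CNS4KO replicate 1, 1.87% of the TRB counts of that library (95% Wilson interval 1.72% to 2.04%). The TRBJ1-2 clonotype had 207 counts in CNS4KO replicate 4, or 0.594% (0.519% to 0.681%). The TRBJ1-3 clonotype had 125 counts in CNS4KO replicate 1, or 0.463% (0.389% to 0.551%). Those of TRBJ1-4 and TRBJ1-5 were smaller, with 65 counts (0.258%, 0.203% to 0.329%) and 32 counts (0.127%, 0.090% to 0.1795%), both in CNS4KO replicate 3. The J matches in these junctions run from 13 bases in the TRBJ1-5 clonotype to 22 in the TRBJ1-4 clonotype.

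At equal counts, all 5 genes held fewer distinct clonotypes in CNS4KO. TRBJ1-1, thinned to 1542 counts, gave 859, 1191, 1188, 1137 and 1271 clonotypes in the CNS4KO libraries 1 to 5. The CNS4Flox libraries gave 1378, 1330, 1299, 1341 and 1342. CNS4KO replicate 1, with the clonotype of 506 counts, was the lowest, and the groups did not overlap. The means were 1129 ± 158 and 1338 ± 28.3 (SD, n = 5 each; two-sided exact permutation p = 0.00794, the smallest that 252 assignments allow; adjusted p = 0.00866).

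TRBJ1-2 at 937 counts gave 637 ± 49.8 clonotypes in CNS4KO libraries, against 785 ± 27.8 in CNS4Flox libraries. TRBJ1-4 at 1153 counts gave 832 ± 55.03 and 983 ± 26.9, and TRBJ1-5 at 474 counts gave 362 ± 17.9 and 414 ± 10.7, each with the same exact permutation p as TRBJ1-1. For TRBJ1-3, at 1036 counts, the groups overlapped through CNS4KO replicate 5 (849, above CNS4Flox replicate 3 at 814), with means of 748 ± 69.6 and 866 ± 36.9 (exact permutation p = 0.0159, adjusted p = 0.0159). All 5 genes were called, as were all 12 TRBJ genes (percent called 100), and groups did not overlap in 4 of the 5 (91.7% of the 12 genes). With p-values adjusted over all 7 measures and 12 genes, TRBJ1-3 was not called (adjusted exact permutation p = 0.0580). At full depth the differences were -187, -119, -88.4, -120.0 and -76.0 clonotypes for TRBJ1-1 to TRBJ1-5, and none was called (adjusted exact permutation p from 0.495 to 0.511). Full-depth numbers also vary with the counts of a library, which averaged 7820 for the 5 genes in CNS4KO and 7013 in CNS4Flox. Richness at equal counts was also computed without clonotypes with a count of 1. Without them each gene was thinned to the lowest count then left in a library, which is smaller than the counts above. The differences at that lower depth were 6.63, 9.84, 17.6, 24.3 and 8.46 clonotypes for TRBJ1-1 to TRBJ1-5, higher in CNS4KO. None was called (adjusted exact permutation p from 0.552 to 0.841). This setting changes both the clonotypes and the depth, and their effects were not separated.

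The 10 most abundant clonotypes took a larger share of a gene's counts in CNS4KO for TRBJ1-1, TRBJ1-2 and TRBJ1-5. For TRBJ1-1 they held 31.7%, 6.36%, 4.27%, 7.25% and 4.66% in the CNS4KO libraries 1 to 5. The CNS4Flox libraries had 2.52%, 4.04%, 4.06%, 2.56% and 2.52%. CNS4KO replicate 1 was far above all others, and the lowest CNS4KO library was just above the highest CNS4Flox library. The difference in means was 7.71 percentage points (exact permutation p = 0.00794, adjusted p = 0.0159) and 2.49 without CNS4KO replicate 1 (adjusted p = 0.0318 by the exact permutation test).

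For TRBJ1-2 they held 10.5%, 15.6%, 11.4%, 20.6% and 6.88% in the CNS4KO libraries, while the CNS4Flox libraries had 3.74%, 6.28%, 5.69%, 5.45% and 6.21%, again without overlap (7.51 percentage points, adjusted exact permutation p = 0.0159). TRBJ1-5 differed by 3.71 percentage points (10.6% ± 1.4 against 6.91% ± 1.7, SD, n = 5 each, adjusted exact permutation p = 0.0212) with overlapping groups. TRBJ1-4 (4.66 percentage points, adjusted exact permutation p = 0.0520) and TRBJ1-3 (4.91 percentage points, adjusted exact permutation p = 0.0952) did not pass. In both genes CNS4KO replicate 5, at 4.39% and 4.43%, lay among the CNS4Flox libraries, and without that library all 5 genes were called. The test thus called 3 of the 5 genes (percent called 83.3), and groups did not overlap in 2 of them (50% of the 12 genes). Without clonotypes with a count of 1 none of the 5 was called (adjusted exact permutation p from 0.310 to 0.693). The differences were then 9.55, 6.52, 3.08 and 2.32 percentage points for TRBJ1-1 to TRBJ1-4 and -0.999 for TRBJ1-5, against 7.71 and 7.51 for TRBJ1-1 and TRBJ1-2 with all clonotypes. With p-values adjusted over all 7 measures and 12 genes, TRBJ1-5 was not called (adjusted exact permutation p = 0.0580).

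**Figure D5:**
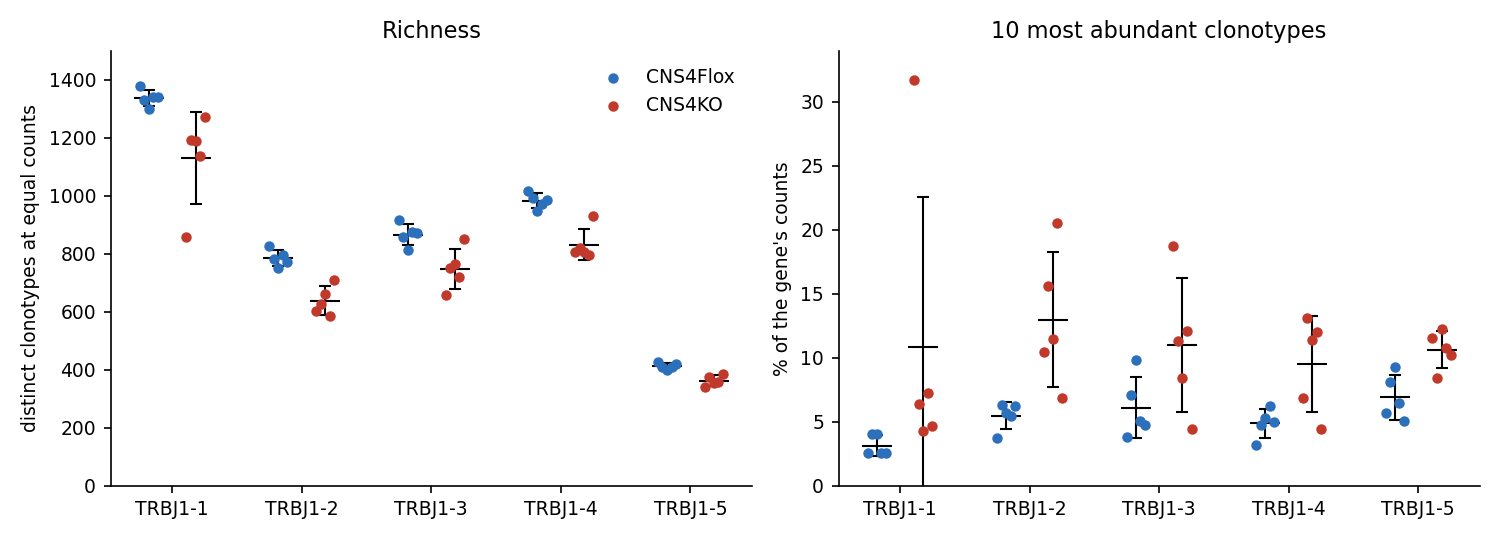
Distinct clonotypes at equal counts (left; a gene's own fixed count) and percent of a gene's counts in its 10 most abundant clonotypes (right), with a point for each library and group mean and SD in black (n = 5). On the left the CNS4KO mean is lower for each gene, 1129 against 1338 for TRBJ1-1, and the groups overlap for TRBJ1-3; on the right a single CNS4KO library reaches 31.7% for TRBJ1-1, where the lower SD bar runs below the axis.

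Sharing between libraries was compared on amino acid clonotypes, which join all entries of equal V name, J name and CDR3 residues. The 5 genes gave 46428 of these, from 51872 nucleotide clonotypes. Of them 41698 were found in 1 library, 4595 in 2 to 4 and 135 in 5 or more, and 0 in all 10. TRBJ1-1 and TRBJ1-3 were the most shared, with 12.1% and 11.97% of amino acid clonotypes in at least 2 libraries, and TRBJ1-2 had 10.4%, TRBJ1-4 7.79% and TRBJ1-5 6.03%. TRBJ1-1 gave 71 of the 135 clonotypes found in 5 or more libraries, while TRBJ1-5 gave 1. TRBJ1-1 had 14818 amino acid clonotypes in all and TRBJ1-5 had 5028, and these values were not adjusted for how deeply each gene was sampled.

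Widely shared clonotypes had fewer inserted bases and kept more of the J end. Mean inserted bases were 5.51 for clonotypes in 1 library, 4.13 for those in 2 to 4 and 3.61 for those in 5 or more. Mean J bases kept were 18.7, 19.1 and 19.3, and each amino acid clonotype was encoded by 1.01, 2.004 and 4.69 nucleotide sequences on average. More libraries also give more chances to see a further nucleotide sequence, so the last values are not independent of the grouping. The classes differ in their make-up, since TRBJ1-1 gave 71 of the 135 most widely shared. Within each of TRBJ1-1 to TRBJ1-4 the order was the same: J bases kept were 17.3, 17.9 and 18.4 in TRBJ1-1, 18.0, 18.6 and 19.1 in TRBJ1-2, 20.3, 20.7 and 21.1 in TRBJ1-3, and 19.7, 20.3 and 20.9 in TRBJ1-4. In TRBJ1-5 they were 18.7, 19.3 and 18.8, the last from 1 clonotype.

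The most shared clonotype of each gene is shown by a nucleotide sequence found in as many libraries as any other version of it, because these junctions keep most of the J end, again in capitals.
TRBJ1-1 with TRBV31: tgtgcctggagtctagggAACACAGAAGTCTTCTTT
TRBJ1-2 with TRBV26: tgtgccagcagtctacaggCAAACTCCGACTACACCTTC
TRBJ1-3 with TRBV31: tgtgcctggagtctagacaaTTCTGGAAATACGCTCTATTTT
TRBJ1-4 with TRBV31: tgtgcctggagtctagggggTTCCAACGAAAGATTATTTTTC
TRBJ1-5 with TRBV5: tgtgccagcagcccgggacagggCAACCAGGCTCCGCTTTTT
The TRBJ1-1 clonotype was in 9 libraries, 5 CNS4KO and 4 CNS4Flox, with 22 counts in all from 10 nucleotide sequences. The next in that gene, also with TRBV31, was in 8 libraries with 30 counts. The TRBJ1-2 and TRBJ1-3 clonotypes were in 7 libraries each, with 19 and 22 counts, the TRBJ1-4 clonotype in 6 with 9 counts and the TRBJ1-5 clonotype in 5 with 7 counts. The second most shared clonotypes joined TRBV12-1 to TRBJ1-2 (7 libraries, 17 counts), TRBV5 to TRBJ1-3 (7 libraries, 15 counts), TRBV12-1 to TRBJ1-4 (6 libraries, 7 counts) and TRBV1 to TRBJ1-5 (4 libraries, 6 counts). All of these were therefore small clones, in contrast to the largest clonotypes above.

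No difference between the groups was detected in a shared clonotype of the 5 genes. Of 135 tested by counts, edgeR called 0 (percent called over 666 TRB clonotypes 0), with 10 at an unadjusted p under 0.05 (5.56% of the 666) and a smallest adjusted p of 0.300; DESeq2 also called 0. Of the 135, 82 were higher and 53 lower in CNS4KO, at a median log2 fold change of 0.26, against -0.04 over all 666. At these low counts a difference in a single clonotype was hardly detectable.

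TRBJ1-3 amino acid clonotypes, counted once each, were shared more often in CNS4KO, and whether the genes differ in this was not tested. Of its amino acid clonotypes, 24.7%, 27.1%, 25.8%, 25.1% and 28.5% in the CNS4KO libraries 1 to 5 were found in at least 1 other library, against 23.6%, 21.1%, 24.6%, 22.7% and 23.7% in the CNS4Flox libraries. The groups did not overlap, though CNS4KO replicate 1 and CNS4Flox replicate 3 were 24.7% and 24.6%. The difference was 3.09 percentage points (26.2% ± 1.6 against 23.1% ± 1.3, exact permutation p = 0.00794, adjusted p = 0.0476; 1 of 5 genes, percent called over 12 genes 16.7). Outside the 5 genes TRBJ2-7 was called too, at 2.03 percentage points with the same adjusted exact permutation p. TRBJ1-5 (2.04 percentage points), TRBJ1-2 (1.62), TRBJ1-1 (1.31) and TRBJ1-4 (-0.480) did not pass, with adjusted exact permutation p-values from 0.222 to 0.314.

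With any of the 10 samples left out the TRBJ1-3 difference was 2.19 to 3.32 percentage points and was not called, but the smallest exact p that 9 samples allow is 0.0159, which did not pass after adjustment (adjusted exact permutation p from 0.0952 to 0.381). Leaving out the pair of libraries with high overlap leaves 4 libraries per group. The smallest exact p is then 0.0286, which cannot pass adjustment in a single gene. The TRBJ1-3 difference was 3.02 percentage points in that setting, at an adjusted exact permutation p of 0.343. It was 1.95 percentage points by nucleotide clonotypes (adjusted exact permutation p = 0.571), 0.699 without clonotypes with a count of 1 (adjusted exact permutation p = 0.878), and -0.092 with clonotypes weighted by count (adjusted exact permutation p = 0.960). CNS4Flox replicate 3 and CNS4KO replicate 5 also shared the most nucleotide clonotypes within each gene: 85 of TRBJ1-1, 60 of TRBJ1-3, 36 of TRBJ1-4, 32 of TRBJ1-2 and 20 of TRBJ1-5. Where that overlap comes from was not tested.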

How the data were processed

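Each deposited table lists the clonotypes of a library. Per the file headers, it gives a whole-number count, a fraction of the library total, the CDR3, V, D and J names, and the positions where V, D and J matches end or start. The fraction deposited by the authors was not used. Per the submitters' processing notes the genome build is mm10; the aligner and clonotype caller are not given in the sources used here. Per the labels both TCR chains were amplified, and all entries bear TRB names. Beta chains were therefore recognised by the final CDR3 residues, listed from textbook knowledge of the J segments. The members and lists were chosen with earlier results of these data known.

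J bases kept are the CDR3 length in bases minus the J start; inserted bases are those between V, D and J matches. Inserted bases that happen to match a segment count as kept. Counts were tested with edgeR 4.0.16 (quasi-likelihood, library size the TRB total, at least 10 counts in at least 5 samples, no such filter for shared clonotypes, found in at least 5 libraries), with DESeq2 1.42.0 (R 4.3.3) as an alternative. Measures per gene used exact permutation tests over samples (Python 3.11.15, numpy 2.4.6), adjusted by Benjamini-Hochberg over 12 TRBJ genes, threshold 0.05, and genes were compared by sign flips within libraries, adjusted over 48 comparisons (44 without TRBJ1-6). Richness used the rarefaction formula at the lowest count of the gene over the libraries. Scripts were tested on simulated data. Named were all 5 genes, the 2 most and 1 least frequent V partners of each, the pairs past the threshold, and for each gene the 2 most shared clonotypes and the largest. TRBJ1-6 was left out of comparisons between genes in an alternative added after the data were seen.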

Additional observations from a re-analysis of the deposited data

Results flagged for a closer look

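A sample counted as far from its group where its gap to the nearest other sample was over 0.71 of the group's range. Of 98 groups of 5 libraries checked, 8 held such a sample, and chance gives about 1 in 20 groups. In the share of the 10 most abundant TRBJ1-1 clonotypes, CNS4KO replicate 1 stood at 31.7%, with the other 4 between 4.27% and 7.25%. In TRBJ1-1 use, CNS4KO replicate 2 was at 8.64% of TRB clonotypes, with the others at 9.47% to 9.70%. In TRBJ1-4 richness at equal counts, CNS4KO replicate 5 gave 928.9 clonotypes and the others 796 to 821. CNS4Flox replicate 4 stood apart in 4 measures: TRBJ1-5 CDR3 length (13.43 residues, others 13.55 to 13.59), TRBJ1-5 J bases kept (18.77, others 18.70 to 18.72), TRBJ1-4 junctions with no inserted base (0.559%, others 0.185% to 0.287%) and TRBJ1-4 use (6.19% of TRB counts, others 5.59% to 5.75%). In TRBJ1-3, CNS4Flox replicate 2 had 5.14 inserted bases per junction and the others 4.95 to 4.99. No cause was tested for any of these.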

How the results depend on the processing

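No paired analysis was possible because the replicate numbers follow the order of the samples and pair nothing. Values below are CNS4KO minus CNS4Flox, or numbers of the 5 genes or their pairs called; the cause of a change was not tested. Pairs by counts called were 2 by DESeq2 and 0 without clonotypes with a count of 1 or without the 2 libraries with high overlap, and 0 to 2 with a sample left out. Pairs by clonotypes were 1 without those 2 libraries, and 1 to 2 with a sample left out. Richness called 0 genes without clonotypes with a count of 1, where the equal counts were lower, and 0 at full depth, where counts were not made equal. The share of the 10 most abundant clonotypes called 0 without clonotypes with a count of 1, 5 without the 2 libraries, and 3 to 5 with a sample left out. Sharing called 0 when weighted by count, without clonotypes with a count of 1, without the 2 libraries, by nucleotide clonotypes, and 0 with any sample left out. With libraries left out, the smallest exact p allowed could not pass adjustment in a single gene.

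Directions turned as follows. Without clonotypes with a count of 1, log2 fold changes of use were -0.0064 for TRBJ1-3 by counts, and -0.0276, 0.0712 and 0.0052 for TRBJ1-1, TRBJ1-2 and TRBJ1-5 by clonotypes. There too, TRBJ1-4 J bases kept became 0.052, TRBJ1-5 CDR3 length 0.067 and TRBJ1-5 inserted bases 0.048. In the same setting TRBJ1-2 and TRBJ1-4 junctions with no inserted base became 0.052 and -0.291 percentage points. Richness, at lower equal counts than in the main result, became 6.63, 9.84, 17.6, 24.3 and 8.46 for TRBJ1-1 to TRBJ1-5. The TRBJ1-5 share of the 10 most abundant clonotypes became -0.999. Weighted by count, J bases kept became -0.019 for TRBJ1-1 and 0.081 for TRBJ1-4, CDR3 length -0.035 for TRBJ1-1 and -0.0026 for TRBJ1-2, TRBJ1-1 inserted bases -0.017, TRBJ1-2 junctions with no inserted base 0.0040, and sharing -0.129 for TRBJ1-1 and -0.092 for TRBJ1-3. With a D match asked for, TRBJ1-4 inserted bases became -0.0043, and without the 2 libraries TRBJ1-4 junctions with no inserted base became -0.049. Without TRBJ1-6, against the other genes, J bases kept of TRBJ1-2 became -0.589 and TRBJ1-4 junctions with no inserted base -0.010.

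With each sample left out in turn, signs turned in small differences: use of TRBJ1-1 and TRBJ1-3 by counts (-0.0403 to 0.107 and -0.0022 to 0.0704) and of TRBJ1-2 and TRBJ1-5 by clonotypes (-0.0441 to 0.0123 and -0.0482 to 0.0077), TRBJ1-4 J bases kept (-0.051 to 0.014), CDR3 length of TRBJ1-2 and TRBJ1-4 (-0.013 to 0.015 and -0.011 to 0.033), TRBJ1-4 inserted bases (-0.030 to 0.026), and junctions with no inserted base of TRBJ1-2, TRBJ1-4 and TRBJ1-5 (-0.056 to 0.041, -0.041 to 0.112 and -0.243 to 0.119), for TRBJ1-4 also against the other genes (-0.017 to 0.044). In all, 104 of 130 counts of calls were within 1.5 times the main count with a sample left out, and 45 of 57 under other alternatives. Depth limits rare features: TRBJ1-5 had 474 counts in its smallest library, which gives few junctions with no inserted base.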
